A study of Mus musculus with 57 samples.

Results

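The genes described here are 9 genes of glucocorticoid activation and response, out of 45337 genes in the deposited table. They are Hsd11b1, which makes active glucocorticoid inside cells, the receptor genes Nr3c1 and Nr3c2, the receptor co-chaperone genes Fkbp4 and Fkbp5, and the classic glucocorticoid target genes Tsc22d3, Sgk1, Per1 and Zbtb16. The other 8 genes were listed for what they are known to do, though with earlier results of these data known. Hsd11b1 was selected on its normalised reads in these libraries, being higher in Sod1G86R corticospinal neurons than in wild-type ones. That difference is therefore described below and not tested. All 9 genes were found by symbol, and all 9 passed the filter on low levels in both kinds of cell.

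The study sequenced RNA from brain cells of wild-type (WT) mice and of mice carrying Sod1G86R, mutant superoxide dismutase 1, which causes a motor neuron disease resembling amyotrophic lateral sclerosis. One kind of library came from cells labelled CSN, the corticospinal neurons whose axons leave the cortex for the spinal cord, and the other from cells labelled only as control cells, which the labels do not define further. Ages are given as plain numbers, read here as days. There were 13 Sod1G86R CSN libraries (3 at 30 days, 4 at 60, 4 at 90 and 2 at 105) and 16 WT CSN libraries (4 at each age). Sod1G86R control cells gave 14 libraries (3 at 30 days, 3 at 60, 4 at 90 and 4 at 105), and WT control cells gave 14 (4 at 30 days, 2 at 60, 4 at 90 and 4 at 105). Read by genotype, age and number, the labels name 32 animals, of which 25 gave both kinds of cell. The promoter of the transgene and the mouse strain are not given in the sources used here, and the labels name no hormone or other treatment for any group.

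The 57 libraries held 22.2 to 64.2 M reads assigned to genes. Sod1 was between 80216 and 172179 normalised reads in Sod1G86R CSN and between 1806 and 4562 in WT CSN, and between 38567 and 155479.5 against between 1611 and 4244 in control cells, so no library went against its genotype label. Of 15 listed CSN markers, 14 were higher in CSN than in control cells, and all 12 oligodendrocyte and all 14 microglia markers were lower there (limma, adjusted p under 0.05). Control cells held markers of several cell types at once. Their summed oligodendrocyte markers ran from 122620.3 to 2193719 normalised reads, and their summed microglia markers from 28483 to 349862.5. A level in these bulk libraries sums over cells, so fewer cells of a type and less RNA per cell cannot be told apart.

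As background, glucocorticoids are steroid hormones of the adrenal cortex that enter the brain and act through a pair of nuclear receptors. The enzyme 11-beta-hydroxysteroid dehydrogenase type 1, the product of Hsd11b1, turns inactive 11-dehydrocorticosterone back into active corticosterone inside the cell. The receptors are held ready for hormone by Hsp90 and its co-chaperones, and once hormone binds they enter the nucleus, bind DNA and change the transcription of target genes. Among those targets, FKBP5 lowers the affinity of the receptor for hormone and so closes a feedback loop.

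Promoters of 3 of the target genes are shown because they carry the letters through which hormone and clock inputs to such genes are classically read. RefSeq promoter windows (250 bases before to 50 bases after a start site, assembly GRCm38.p6) were matched for 7 of the 9 genes, in 15 windows, and Nr3c1 and Zbtb16 were not matched. Only the 250 bases before each start site were searched, and every count of windows below covers that part alone. In the Sgk1 stretch the capitals mark a perfect palindromic glucocorticoid response element, AGAACA and TGTTCT with any 3 bases between them, searched on both strands. In the Per1 and Fkbp5 stretches the capitals mark an E-box, CACGTG, the element bound by the clock proteins CLOCK and BMAL1.
Sgk1, chr10:21993640-21993889, plus strand: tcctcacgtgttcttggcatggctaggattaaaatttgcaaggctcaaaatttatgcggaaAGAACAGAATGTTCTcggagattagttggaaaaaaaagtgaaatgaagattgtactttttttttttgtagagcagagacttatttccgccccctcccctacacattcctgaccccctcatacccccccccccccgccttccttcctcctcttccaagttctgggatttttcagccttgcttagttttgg
Per1, chr11:69098739-69098828, plus strand: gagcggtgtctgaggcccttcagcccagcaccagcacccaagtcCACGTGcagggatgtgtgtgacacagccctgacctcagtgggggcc
Fkbp5, chr17:28486270-28486359, minus strand: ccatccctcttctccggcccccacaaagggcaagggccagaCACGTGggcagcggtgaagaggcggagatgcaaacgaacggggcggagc
The Sgk1 element began 189 bases before the start site at 21993890, and it lay inside the span of the longer Sgk1 transcripts. The element was in 3 of 32851 promoter windows of the genome, or 0.00913%, and among the matched genes only Sgk1 held it. CACGTG was in 6.02% of windows and in 3 of the 15 windows of these genes, those of Sgk1, Per1 and Fkbp5. None of the 15 windows held the cAMP response element TGACGTCA, found in 1.55% of windows, and 8 held CCAAT, found in 33.8%. A match is a description of letters only, and a window without a match says nothing about the factor.

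Hsd11b1 (ENSMUSG00000016194, chromosome 1, 193221634 to 193264075, minus strand, GRCm38) was the gene chosen for its level in mutant CSN. Levels are in normalised reads, the deposited unit, which is reads divided by 1 factor for each library. At 30 days the Sod1G86R CSN libraries had 1809, 629 and 1606 normalised reads and the WT CSN libraries 429, 696, 499 and 513, so replicates 3 and 6 of the Sod1G86R group were above every WT library. At 60 days Sod1G86R CSN had 1163, 603, 458 and 1581 and WT CSN had 228, 249, 197 and 1589. Replicate 7 of the WT group was far above the other WT libraries of that age, which lay between 197 and 249, and the 2 groups overlapped through that library alone. At 90 days Sod1G86R CSN had 1260.4, 1361, 1526 and 1078 against 532, 607, 259.8 and 164 in WT. At 105 days the values were 1060.3 and 1253 against 822, 748, 558 and 846. The groups did not overlap at 90 or at 105 days, where 7.33% and 12.4% of all genes had every Sod1G86R library above every WT library.

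Over all ages Hsd11b1 was at 1184 ± 417 normalised reads in Sod1G86R CSN (SD, n = 13, range 458 to 1809, median 1253) and 559 ± 354 in WT CSN (SD, n = 16, range 164 to 1589, median 522). The fitted difference, averaged over ages, was 1.18 on the log2(normalised reads + 34.6) scale (SE 0.254), which is 2.26-fold, and 12 of 13 Sod1G86R libraries were above the WT mean. With the mitochondrial share of reads as a covariate it was 0.93, and with the number of detected genes as a covariate it was 0.595. Leaving out each library in turn left it between 1.10 and 1.34. Hsd11b1 lies inside the span of Lamb3 on the opposite strand but shares 0 exon bases with it, and Lamb3 had a difference of -0.20 in CSN (limma adjusted p = 0.318). In control cells Hsd11b1 was at 1136 ± 515 in Sod1G86R (n = 14, range 532 to 2141, median 1002) and 1415 ± 1233 in WT (n = 14, range 203 to 4993, median 1143). The Sod1G86R values lay wholly within the WT range, and the difference of -0.15 (SE 0.324) did not pass (limma, adjusted p = 0.873). Averaged over ages, the difference between CSN and control cells in the genotype effect was 1.32, again a description, since it holds the contrast that chose the gene.

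**Figure D1:**
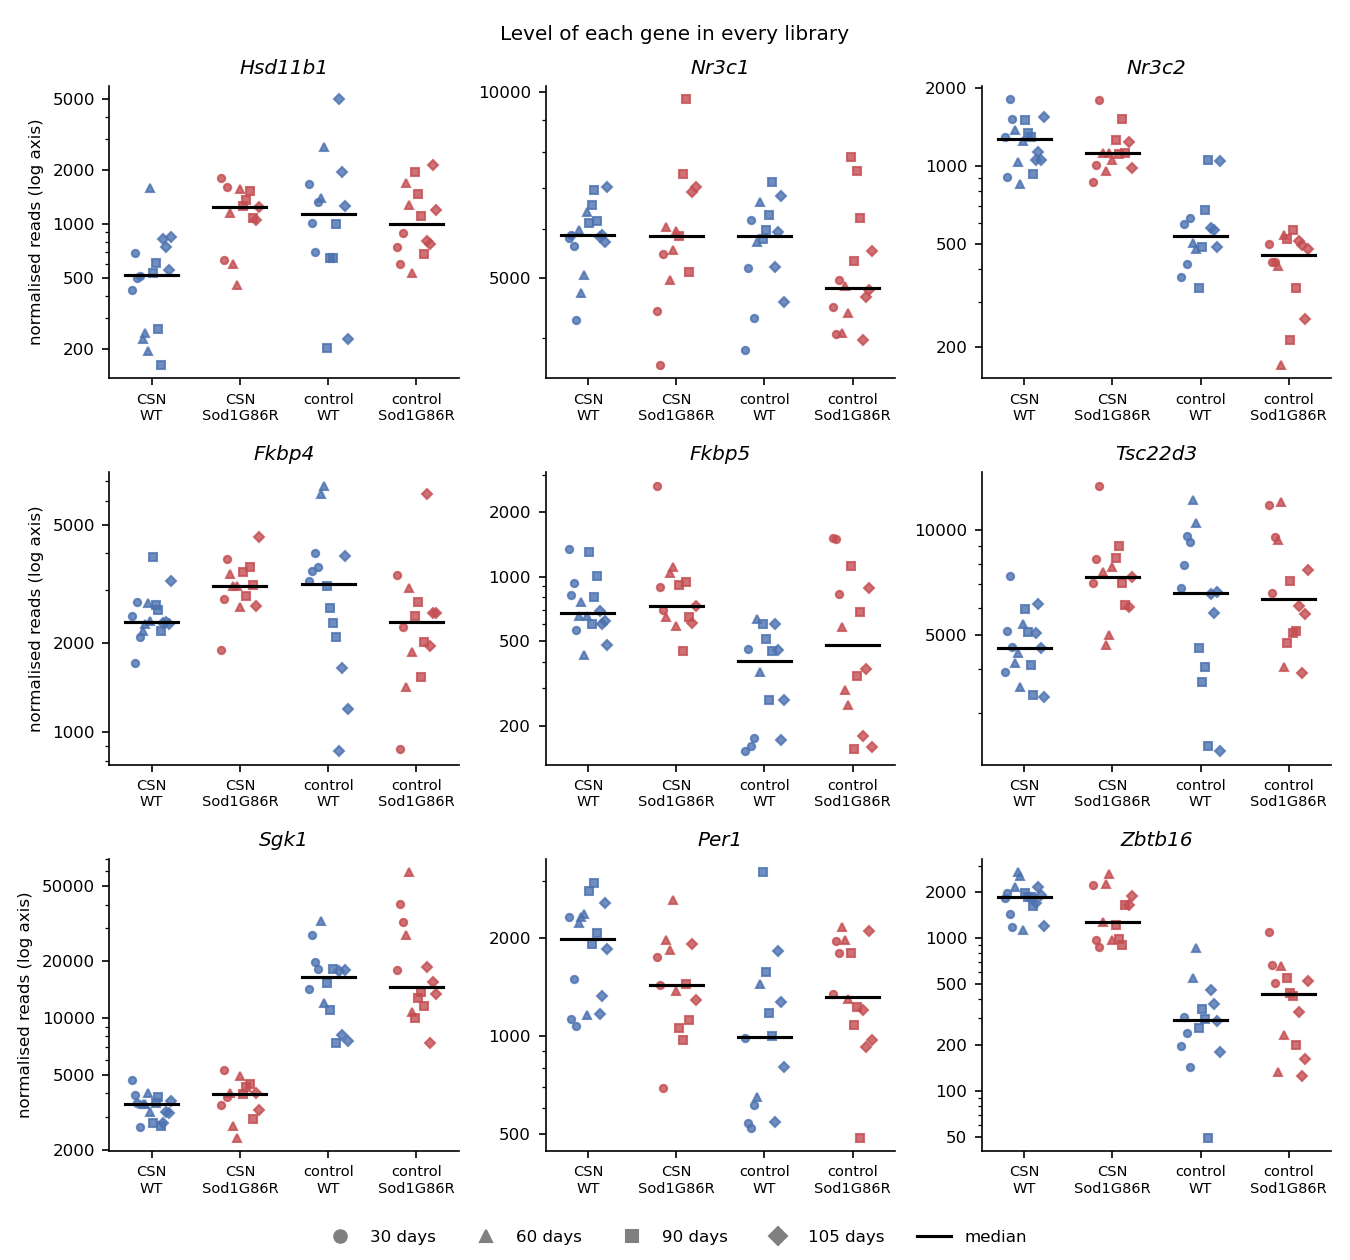
Level of each of the 9 genes in all 57 libraries, in normalised reads on log axes, with libraries as points (shape gives the age, colour the genotype) and the group median as a bar. Sgk1 in CSN (at most 5312) lies below every control library (at least 7370.4), and Hsd11b1 in Sod1G86R CSN has a median of 1253 against 522 in WT CSN.

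Neither receptor gene passed between the 2 genotypes of CSN. Nr3c1 (ENSMUSG00000024431, chromosome 18, 39410545 to 39519421, minus strand), which encodes the glucocorticoid receptor, was at 5997 ± 1531 normalised reads in Sod1G86R CSN (n = 13, range 3617 to 9724, median 5838) and 5872 ± 730.1 in WT CSN (n = 16, range 4279 to 7022, median 5867). The difference was 0.01 (SE 0.093, limma adjusted p = 0.960), and it was -0.23 (adjusted p = 0.0221) after quantile normalisation and -0.02 after TMM, so its direction depended on the scaling. Nr3c2 (ENSMUSG00000031618, chromosome 8, 76899442 to 77245012, plus strand), which encodes the mineralocorticoid receptor, the higher-affinity receptor for corticosterone, was at 1163 ± 248 against 1239.8 ± 267, a difference of -0.09 (SE 0.118, adjusted p = 0.605). Nr3c2 overlaps the opposite-strand gene Gm10649 over 247 exon bases, and the library kit does not mark strand, so reads from that stretch cannot be told apart. In control cells neither receptor gene passed, with differences of -0.18 for Nr3c1 and -0.43 for Nr3c2 (adjusted p = 0.528 and 0.433).

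Of the 8 genes tested between genotypes in CSN, 2 were higher in Sod1G86R, Tsc22d3 and Fkbp4, and none was lower. Over all 19093 genes tested the share called in this comparison was 19.1% (12.8% higher and 6.31% lower), so 2 of 8 is near that background. The median difference of the 8 genes was 0.08 against -0.05 over all genes.

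Fkbp4 (ENSMUSG00000030357, chromosome 6, 128429735 to 128438677, minus strand) encodes FKBP52, the Hsp90 co-chaperone that favours hormone binding and transport of the receptor. It was at 3155 ± 647 normalised reads in Sod1G86R CSN (n = 13, range 1887 to 4535, median 3111) and 2510.4 ± 499.8 in WT CSN (n = 16, range 1706.5 to 3889, median 2354). The ranges overlapped widely, and the difference was 0.33 (SE 0.110, 1.26-fold, limma adjusted p = 0.0348). It no longer passed in 10 of 29 fits that left out 1 library, with adjusted p up to 0.177 without replicate 13 of Sod1G86R CSN at 105 days, and in 8 of 16 other settings. Fkbp5 (ENSMUSG00000024222, chromosome 17, 28399094 to 28517527, minus strand) encodes FKBP51, the co-chaperone that opposes FKBP52 and is itself induced by glucocorticoids. It was at 919 ± 561 in Sod1G86R CSN (range 451 to 2670.4, median 733) and 767 ± 265 in WT CSN (range 432 to 1348, median 677), a difference of 0.17 (SE 0.175, adjusted p = 0.514). The highest Fkbp5 value of the 57 libraries was that of replicate 3 of Sod1G86R CSN at 30 days.

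Tsc22d3 (ENSMUSG00000031431, chromosome X, 140539528 to 140600659, minus strand) encodes GILZ, a leucine zipper protein that carries part of the anti-inflammatory action of glucocorticoids. At 30 days Sod1G86R CSN had 7066, 8273 and 13410.2 normalised reads and WT CSN 3929, 5125, 7365 and 4619. At 60 days the values were 7604, 4680.5, 4996 and 7845 against 4172, 4449, 3559.5 and 5397. At 90 days they were 8326, 9004, 7052 and 6099.9 against 5959.5, 5106.5, 4112 and 3376, and at 105 days 6008 and 7342 against 5069.8, 6137, 4596 and 3327. Every Sod1G86R library of 90 days was above every WT library of that age, as for 7.33% of all genes, and at the other ages the groups overlapped. Control cells at 90 days had the same order, with 4742, 7137, 5071 and 5124 in Sod1G86R against 4607, 3673, 4057 and 2409 in WT, a separation that 0.773% of all genes had there. That difference was 0.60 (SE 0.332, limma adjusted p = 0.9998), and both contrasts at 90 days were chosen after the values were seen.

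Over all ages Tsc22d3 was at 7516 ± 2187.5 normalised reads in Sod1G86R CSN (n = 13, median 7342) and 4769 ± 1092 in WT CSN (n = 16, median 4607). It rose by 0.64 on the log2 scale (SE 0.126, 1.56-fold, limma adjusted p = 0.000998), and 12 of 13 Sod1G86R libraries were above the WT mean. The call held in all 29 fits that left out 1 library, with adjusted p up to 0.00762, and with a score of glial markers as a covariate (0.63, adjusted p = 0.00587). It did not hold with the mitochondrial share of reads as a covariate (0.43, adjusted p = 0.255) or with the number of detected genes (0.34, adjusted p = 0.499).

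Sgk1 (ENSMUSG00000019970, chromosome 10, 21882184 to 21999903, plus strand) encodes a kinase that raises the activity of ion channels and is induced through both receptors. It was at 3806 ± 865 normalised reads in Sod1G86R CSN (range 2325 to 5312, median 3981) and 3409.8 ± 548 in WT CSN (range 2645 to 4674, median 3502), and the difference of 0.14 did not pass (SE 0.112, limma adjusted p = 0.3696). Zbtb16 (ENSMUSG00000066687, chromosome 9, 48654297 to 48836222, minus strand) encodes PLZF, a zinc finger repressor strongly induced by glucocorticoids in many cells. It was at 1507 ± 604 against 1839 ± 456, a difference of -0.31 (SE 0.162, adjusted p = 0.174). Per1 (ENSMUSG00000020893, chromosome 11, 69095217 to 69109960, plus strand) encodes a core repressor of the circadian clock whose promoter region also answers to glucocorticoids. It was at 1501 ± 515 against 1926 ± 628, a difference of -0.35 (SE 0.156, adjusted p = 0.1098), which passed without replicate 7 of WT CSN at 60 days (adjusted p = 0.0449). Hours of collection are not given in the sources used here, so any difference in the time of day between groups was not tested.

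Per1 stood out at 90 days, a contrast taken after the values were seen. The Sod1G86R CSN libraries had 1063, 971, 1448 and 1123.5 normalised reads and the WT CSN libraries 2788, 1919, 2958 and 2077. Every Sod1G86R library was below every WT library, which held for 5.38% of all genes. The difference was -1.05 (SE 0.289, limma adjusted p = 0.0365, edgeR adjusted p = 0.0331), and 4.86% of all genes were called in that contrast. Leaving out 1 library kept the call in 2 of 8 fits, with adjusted p from 0.0243 to 0.134, the highest without replicate 7 of WT CSN. In other settings the call held in 10 of 13. Of 13 immediate early genes in CSN at 90 days 0 were above 0, with a median of -0.66 against -0.02 over all genes. Among them 1 was called lower and 2 were lower without overlap. Of 17 clock genes 12 were above 0. The part of such shared differences in the Per1 value was not tested. At 30, 60 and 105 days the Per1 difference in CSN was -0.25, -0.03 and -0.07, and the change of the genotype effect from early to late ages did not pass (-0.42, adjusted p = 0.9999).

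Other properties of the CSN libraries moved with genotype. The share of reads from the 13 mitochondrial protein genes was 4.90% ± 1.77 (SD, n = 13) in Sod1G86R CSN and 7.51% ± 2.39 (n = 16) in WT CSN. The number of detected genes was 15592 ± 518 against 16306 ± 469.6. All 14 microglia markers were below 0, of which 3 fell, and their sum ran from 1483 to 18500.0 in Sod1G86R and from 3599 to 20815 in WT. All 12 oligodendrocyte markers were below 0, of which 2 fell, with sums from 8660.5 to 103253 against 4818 to 314190.2. All 8 markers of oligodendrocyte precursors were also below 0, of which 2 fell, and no listed marker of these types was at 0 in every library of a group. Over all genes 6.31% fell and 12.8% rose. Of 12 astrocyte, 13 vascular and 10 upper-layer markers, 10, 12 and 7 were below 0 and none passed. Of 15 CSN markers 12 were above 0 and 4 rose, and of 9 interneuron markers 5 were above 0 and 2 rose. With either the mitochondrial share or the detected genes as a covariate, 0 of the 8 genes passed, and of all genes only 25 and 20 did. Across the 29 CSN libraries, after group means were subtracted, the number of detected genes had a Pearson r of -0.53 with Hsd11b1, -0.57 with Tsc22d3 and -0.62 with Nr3c1, given as a description.

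In control cells 0 of the 9 genes passed between genotypes, where 0.0716% of 20944 genes did (limma). In limma's fit 2456 of the 20944 genes passed an unadjusted threshold of 0.05, among them Fkbp4 (-0.49) and Per1 (0.47). Over all genes limma called 15, edgeR 21 and DESeq2 174. Of 12 astrocyte, 12 oligodendrocyte, 8 precursor and 14 microglia markers, 12, 11, 8 and 13 were below 0 and none passed. Of 14 vascular markers 8 were above 0. All 12 interneuron markers were above 0, and Gad2 passed (2.28, limma adjusted p = 0.0351). That call was lost in 13 of 28 fits that left out 1 library. The part of these marker differences in the values of the 9 genes was not tested. The differences of the 9 genes ran from -0.49 for Fkbp4 to 0.49 for Fkbp5, with Sgk1 at 0.26, Zbtb16 at 0.24 and a median of 0.09, and the lowest adjusted p was 0.401. Tsc22d3 was at 7065 ± 2694 normalised reads in Sod1G86R control cells (range 3896 to 12065, median 6334) and 6603 ± 3041 in WT control cells (range 2324 to 12230.3, median 6596), a difference of 0.09 (SE 0.183, adjusted p = 0.856). Its change between genotypes in CSN minus that in control cells was 0.55 (SE 0.224, adjusted p = 0.1104), so the effect was not shown to differ between the 2 kinds of cell.

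Of the 8 genes tested for that difference, Fkbp4 alone passed (0.82, SE 0.249, limma adjusted p = 0.0409), against 6.26% of all genes. The WT control cells of 60 days, only 2 libraries, had Fkbp4 at 6345 and 6774 normalised reads, above all 14 Sod1G86R control libraries (876 to 6330.2). In control cells of that age 10 of 12 astrocyte, 13 of 14 microglia and 7 of 8 precursor markers were also lower in Sod1G86R without overlap (medians -2.105, -1.65 and -2.601), while the microglia marker Tyrobp was higher without overlap. Lower values without overlap are a separation that 23.6% of all genes had, in a contrast chosen after the values were seen. Their part in the Fkbp4 value was not tested. Without the 60-day libraries the difference had an adjusted p of 0.575, and it failed in 25 of 57 fits that left out 1 library. Per1 had values of -0.35 in CSN and 0.47 in control cells, neither of which passed, and their difference of -0.82 did not pass (SE 0.2799, adjusted p = 0.0606), although it did in 8 of the 57 fits that left out 1 library. The other values were 0.35 for Nr3c2, 0.19 for Nr3c1, -0.12 for Sgk1, -0.32 for Fkbp5 and -0.55 for Zbtb16, none of which passed.

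**Figure D2:**
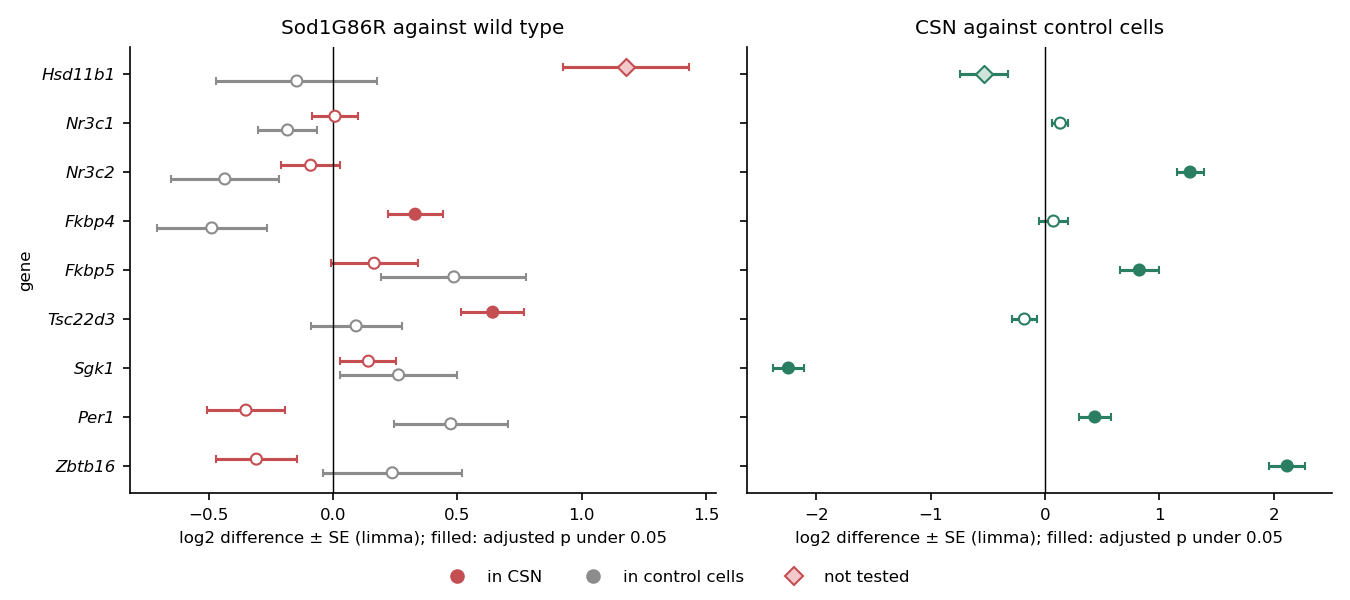
Fitted log2 differences of the 9 genes with their standard errors, Sod1G86R against wild type in CSN and in control cells on the left, and CSN against control cells on the right (filled circles passed at an adjusted p under 0.05, and diamonds are the untested Hsd11b1 contrasts). In CSN Tsc22d3 (0.64) and Fkbp4 (0.33) passed, and no gene passed between genotypes in control cells.

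At 30 days 3 of the 9 genes, all of them glucocorticoid targets, were higher in every Sod1G86R control library than in every WT control library. This contrast was chosen after the values were seen, and 2.95% of all genes had such a separation. Tsc22d3 and Sgk1, also glucocorticoid targets, overlapped between the genotypes, with differences of 0.12 and 0.56. Fkbp5 was at 1523, 1508 and 831 normalised reads in Sod1G86R against 152, 460.2, 162 and 176 in WT. Per1 was at 1345, 1957 and 1804 against 989, 540.2, 522 and 615. Zbtb16 was at 1109, 669.6 and 508 against 198, 305, 239 and 143. Replicate 3 of the WT group was the highest WT library for Fkbp5 and for Zbtb16 but not for Per1.

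None of the 3 passed over all genes at that age. The Fkbp5 difference was 2.36 on the log2 scale (SE 0.573), or 5.13-fold, its p was the 18th lowest of 20944 and its limma adjusted p was 0.337. The Per1 and Zbtb16 differences were 1.34 and 1.61 (adjusted p = 0.764 and 0.774). With DESeq2 on the recovered reads Fkbp5 passed (adjusted p = 0.0355), with edgeR it did not (0.611), and limma called 2 of all genes (0.00955%). At 60, 90 and 105 days the Fkbp5 groups overlapped, with differences of -0.41, 0.07 and -0.08, and the change of its genotype effect from early to late ages did not pass (-0.98, adjusted p = 0.371). The same age in CSN gave Fkbp5 at 2670.4, 891 and 695.5 in Sod1G86R against 1348, 821, 934 and 563 in WT, where only replicate 3 stood above the WT group. Replicates 3 and 4 gave both kinds of cell, and replicate 3 was the higher of the 2 in both.

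Other listed genes at that age in control cells went in both directions. Of 29 further glucocorticoid targets tested, 2 were higher without overlap, Plin4, a lipid droplet coat protein, at 48.5, 159 and 119.8 against 6.92, 5.002, 22.4 and 15.96, and Sult1a1, a sulfotransferase. Glul, glutamine synthetase, was lower without overlap, as 5.25% of all genes were, and 19 of the 29 were above 0, with a median of 0.11 against 0.02 over all genes. Klf9, a well-known direct target, was at 5719.5, 5196 and 2579 against 2378, 3468, 2203 and 2098, with overlap. Of 17 clock genes 13 were above 0 and Per2 and Per3 were higher without overlap. Cell type markers moved as well: all 12 oligodendrocyte markers were below 0, 4 of them without overlap, and their sums were 484120.0, 778379 and 1302020.0 in Sod1G86R against 1813100.0, 1443920.0, 1367470.0 and 982309 in WT. Of 8 markers of oligodendrocyte precursors 1 was above 0 and 5 were lower without overlap (median -1.168). Of 12 astrocyte markers 1 was above 0 (median -0.74), and none separated without overlap. Of 12 interneuron markers 11 were above 0, with Npy, Pvalb and Slc32a1 higher without overlap. The part of these marker differences in the levels of Fkbp5, Per1 and Zbtb16 was not tested. With a glial score as a covariate the differences were 2.07, 1.25 and 1.9975, against 2.36, 1.34 and 1.61 without it.

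**Figure D3:**
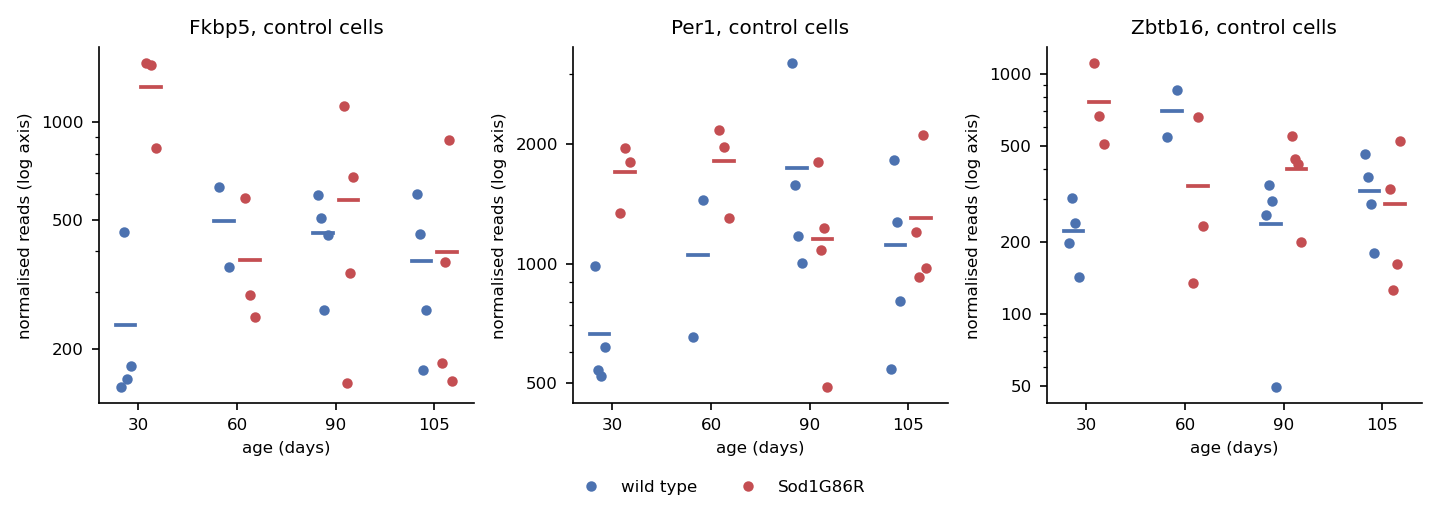
Fkbp5, Per1 and Zbtb16 in control cells by age, in normalised reads on log axes, where points are libraries, colour is the genotype and bars are group means. At 30 days the 3 Sod1G86R libraries lie above the 4 WT libraries for each gene (Fkbp5 831 to 1523 against 152 to 460.2), and at the later ages the groups overlap.

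Of the 8 genes tested between kinds of cell, Hsd11b1 being left as a description because its CSN values chose it, 4 were higher in CSN than in control cells and 1 was lower, against 31% higher and 36.6% lower (67.6% called in all) among 22032 genes. Zbtb16 had the largest rise. It was at 1690.4 ± 544 normalised reads in CSN (n = 29, range 879 to 2728, median 1696) and 379 ± 240.0 in control cells (n = 28, range 49.4 to 1109, median 318), a difference of 2.12 (SE 0.159, limma adjusted p = 1.27e-16). It was higher in CSN in 25 of 25 animals with both kinds of cell. Nr3c2 was at 1206 ± 257 in CSN and 503 ± 194 in control cells, a difference of 1.27 (SE 0.117, adjusted p = 1.5e-13) that held in 24 of 25 animals. Nr3c1 was at 5928 ± 1137.5 and 5438 ± 1107, and its difference of 0.13 did not pass (SE 0.069, adjusted p = 0.0819). Whether the 2 receptor genes differed from each other in this was not tested.

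Fkbp5 was 1.77-fold higher in CSN (0.83, SE 0.171, limma adjusted p = 3.97e-05, 23 of 25 animals), at 835 ± 423 against 505 ± 378 normalised reads. Per1 was 1.35-fold higher (0.44, SE 0.1399, adjusted p = 0.00552, 18 of 25 animals). Both calls were lost with the mitochondrial share as a covariate, where the differences turned to -0.12 and -0.22, and that of Per1 was lost in the Sod1G86R libraries alone (adjusted p = 0.922). The mitochondrial share was 2.63% to 14.55% in CSN and 0.629% to 3.17% in control cells, so this covariate and the kind of cell cannot be told apart over most of its range. Fkbp4 and Tsc22d3 did not pass (0.07 and -0.18, adjusted p = 0.609 and 0.151).

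Sgk1 was the most divergent of the genes, at 3587 ± 722 normalised reads in CSN (n = 29, range 2325 to 5312) and 18592 ± 11545 in control cells (n = 28, range 7370.4 to 59633). The ranges did not overlap, and it was 4.73-fold lower in CSN (-2.24, SE 0.133, limma adjusted p = 2.35e-20) in 25 of 25 animals. Across the 28 control libraries its level, after group means were subtracted, had a Pearson r of 0.67 with the oligodendrocyte marker score, given as a description over libraries that share that measure of cell makeup. Hsd11b1 had a value of -0.53 (SE 0.212), -1.19 in the WT libraries alone and 0.13 in the Sod1G86R libraries alone, and it was higher in CSN in 8 of 25 animals. These values are a description. Its residual level in control cells had a Pearson r of 0.67 with the astrocyte marker score.

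Per kilobase of exon, which allows genes to be set side by side, the order in WT CSN was Tsc22d3 (1098.5 ± 252 normalised reads per kb), Fkbp4 (898 ± 179), Nr3c1 (764 ± 95.0), Sgk1 (695 ± 112), Zbtb16 (348 ± 86.3), Per1 (342 ± 112), Nr3c2 (192 ± 41.2), Hsd11b1 (131 ± 83.2) and Fkbp5 (81.0 ± 27.98). Neighbours in that order differed by less than the larger of their SDs, apart from Sgk1 and Zbtb16 and apart from Per1 and Nr3c2. The glucocorticoid receptor gene was thus at a higher level per kb than the mineralocorticoid receptor gene. In WT control cells Sgk1 led, at 3325 ± 1484 per kb, followed by Tsc22d3 (1521 ± 701) and Fkbp4 (1155 ± 614), and Fkbp5 was lowest (39.6 ± 18.6).

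With age, none of the 9 genes changed in CSN between the early ages (30 and 60 days) and the late ages (90 and 105 days), where limma called 0.0157% of all genes. The differences were -0.25 for Fkbp5, -0.08 for Sgk1, -0.06 for Tsc22d3, -0.01 for Zbtb16, 0.03 for Per1, 0.04 for Nr3c2, 0.21 for Fkbp4, 0.22 for Hsd11b1 and 0.33 for Nr3c1, and only Nr3c1 had an unadjusted p under 0.05 (0.0012, adjusted p = 0.152). Nr3c1 was at 5318 ± 784 normalised reads early (n = 15, range 3617 to 6403) and 6583 ± 1111 late (n = 14, range 5107 to 9724), and DESeq2 and the fit with array weights each called 1 of the 9 genes.

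In control cells 2 of the 9 genes fell with age, against 4.39% of all genes lower and 6.86% called in all. Tsc22d3 was at 9149.8 ± 2456.5 normalised reads early (n = 12, range 4051 to 12230.3, median 9453) and 5097 ± 1573.5 late (n = 16, range 2324 to 7701, median 5098). Of the 12 early libraries 9 were above the highest late one, and it fell by 0.89 on the log2 scale (SE 0.183, limma adjusted p = 0.00502). Sgk1 was at 26128 ± 13991 early (range 10719 to 59633, median 23690.3) and 12939 ± 4104.5 late (range 7370.4 to 18763, median 13133), and it fell by 0.91 (SE 0.235, adjusted p = 0.0178). The Sgk1 call was lost without replicate 1 of WT control cells at 60 days (adjusted p = 0.109).

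Oligodendrocyte markers fell over the same ages in the same control libraries. All 12 fell, with a median of -1.805, and their sum was 1202704 ± 537326 early (310391 to 2193719) and 336315 ± 220443 late (122620.3 to 976480.0). In addition 10 of 14 vascular markers and 3 of 8 markers of oligodendrocyte precursors fell, and no oligodendrocyte marker was at 0 in every library of a group. With the glial marker score as a covariate the differences were -0.39 for Tsc22d3 and -0.42 for Sgk1 (limma adjusted p = 0.592 and 0.7604), and 0 of all genes passed there against 1436 without it. At 105 against 30 days they were -0.71 and -0.93 (adjusted p = 0.1696 and 0.165), where 68 of all genes passed. The 2 genes moved together among control libraries of 1 group, with a Pearson r of 0.63 over 28 libraries after group means were subtracted. The other 7 genes did not pass, at -0.54 for Zbtb16, -0.44 for Fkbp4, -0.26 for Fkbp5, -0.19 for Hsd11b1, 0.025 for Per1, 0.17 for Nr3c2 and 0.22 for Nr3c1.

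**Figure D4:**
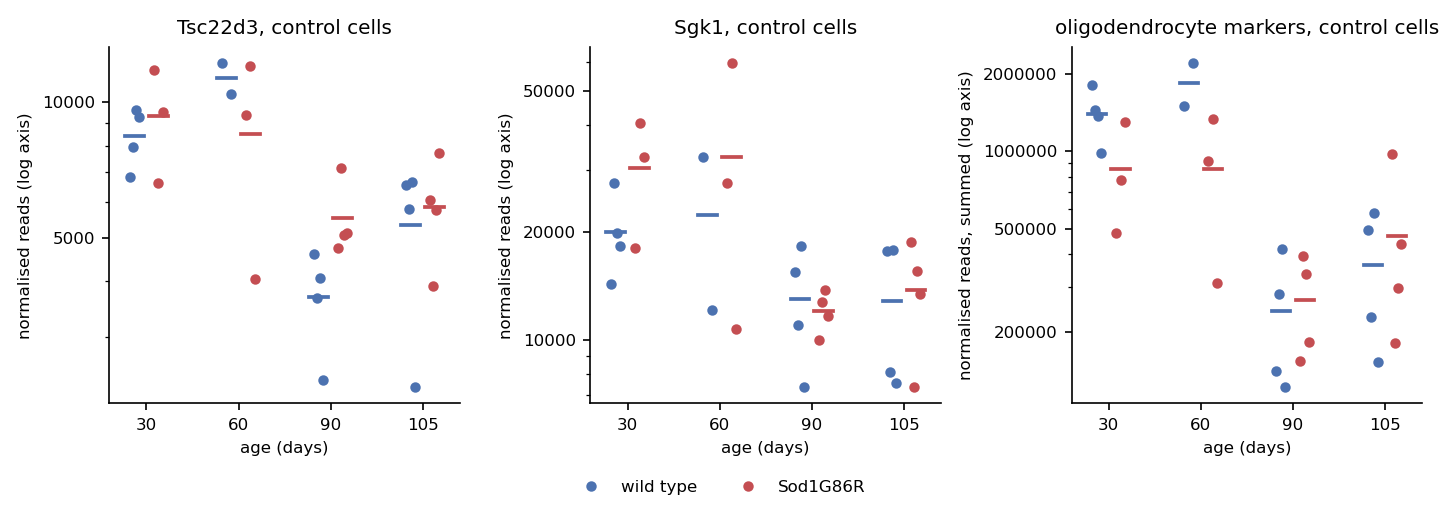
Tsc22d3, Sgk1 and the sum of 12 oligodendrocyte markers in control cells by age, in normalised reads on log axes, with libraries as points, colour as genotype and bars as group means. All 3 are lower at 90 and 105 days than at 30 and 60 days, from a mean of 9149.8 to 5097 for Tsc22d3 and from 26128 to 12939 for Sgk1.

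No gene of the table passed for a change of the genotype effect with age in either kind of cell (0% of genes, limma), with 463 genes in CSN and 3472 in control cells at an unadjusted p under 0.05. Over all genes edgeR also called 0 in both kinds of cell, and DESeq2 called 1 in CSN and 170 in control cells. In CSN the 8 genes tested had values of -0.49 for Fkbp5, -0.42 for Per1, -0.05 for Tsc22d3, 0.02 for Fkbp4, 0.02 for Zbtb16, 0.08 for Nr3c2, 0.19 for Sgk1 and 0.25 for Nr3c1, and Hsd11b1, not tested, was at 0.07. In control cells the values of Fkbp5, Sgk1, Nr3c2, Zbtb16, Nr3c1, Tsc22d3 and Hsd11b1 were -0.98, -0.42, -0.26, 0.06, 0.20, 0.62 and 1.17. The values farthest from 0 were 1.62 for Fkbp4 (SE 0.442, adjusted p = 0.148) and -1.23 for Per1 (SE 0.457, adjusted p = 0.2197). Fkbp4 in WT control cells was at 3228, 3496, 4006 and 3602 normalised reads at 30 days, 6345 and 6774 at 60 days, 3098, 2627.5, 2332 and 2091 at 90 days and 860.3, 1640.5, 3908.5 and 1195 at 105 days. The WT level was thus highest at 60 days, where 2 libraries give it, while Sod1G86R control cells at 60 days had 1416, 3061 and 1855.

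The rest of the pathway was read from lists of genes beside the 9. Among 17 genes of the Hsp90 and receptor folding machinery, 8 rose in Sod1G86R CSN and none fell, where 12.8% of all genes rose and 6.31% fell, with a median of 0.36 against -0.05 over all genes. They included Dnaja1, an Hsp40 co-chaperone (0.76, SE 0.114, limma adjusted p = 0.000143), Ahsa1, which activates the Hsp90 ATPase (0.57, SE 0.106), Cdc37, which hands kinases to Hsp90 (0.50, SE 0.111), and Dnajb1 (0.37, SE 0.097). With either the mitochondrial share or the detected genes as a covariate 0 of the 17 passed. Dnaja1 was at 13250.2 ± 3351 normalised reads in Sod1G86R CSN and 7844 ± 1485 in WT CSN. In control cells 0 of the 17 passed, and of the difference between kinds of cell only that of Ahsa1 did (0.79, adjusted p = 0.0299).

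Of 28 further glucocorticoid targets in CSN 1 rose and none fell, where 12.8% of all genes rose and 6.31% fell, with 9 above 0, 19 below and a median of -0.16 against -0.05 over all genes. The 1 that rose was Camk1g, a calmodulin-dependent kinase (0.40, SE 0.118, limma adjusted p = 0.0181). The call was lost without replicate 13 of Sod1G86R CSN at 105 days (adjusted p = 0.0567). Camk1g lies 0.082 Mb from Hsd11b1, and the same call is counted again below among the neighbours of that gene. Of 17 steroid metabolism genes 4 rose and 2 fell. Those that rose were Hsd17b12 (0.55), Hsd17b10 (0.53) and Srd5a3 (0.66), whose products act mainly on fatty acyl chains, mitochondrial substrates and polyprenols, and Cyp7b1 (0.59), which hydroxylates oxysterols and neurosteroids. Of 15 receptor coregulators 0 passed, with Med14 closest (0.25, adjusted p = 0.0519). Of 6 other steroid receptor genes Esrrg, an orphan receptor, rose (0.66, adjusted p = 0.001405), and of 5 genes of the corticotropin-releasing system 0 passed.

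Clock and immediate early genes, which share inputs with Per1, were read against the 19.1% of all genes called in CSN. Of 17 clock genes Bhlhe40 (0.36), Nr1d2 (0.33) and Ciart (0.37) rose in Sod1G86R CSN and Bhlhe41 fell (-0.37). Of 13 immediate early genes none rose and Npas4 and Btg2 fell (-0.80 and -0.79, limma adjusted p = 0.00267 and 0.0231). Across CSN libraries the residual level of Per1 had a Pearson r of 0.60 with the mean of the immediate early genes. In control cells 0 genes of these lists passed between genotypes.

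Between kinds of cell most of the pathway differed, as did most genes, with 31% of all genes higher in CSN and 36.6% lower. Of 29 further glucocorticoid targets 4 were higher in CSN and 20 lower, among them Cdkn1a, Cebpd and Txnip lower (-3.71, -3.435 and -3.46) and Bcl6 higher (1.72). Coregulators were the reverse, with 13 of 15 higher in CSN, led by Ppargc1a (2.09). Of 17 folding genes 4 were higher and 6 lower, the Hsp90 genes Hsp90aa1 and Hsp90ab1 higher (0.99 and 0.92) and Hspa1a and Hspa1b lower (-2.01 and -1.57). In control cells 2 of 29 targets fell with age (Ddit4 and Cebpd, -1.13 and -1.125), where 4.39% of all genes fell.

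The genes within 5 Mb of Hsd11b1 on chromosome 1 were also counted. Of 74 tested in CSN, 4 rose (Smyd2 1.16, Batf3 0.66, Cd34 0.49 and Camk1g 0.40) and 5 fell, where 12.8% of all genes rose and 6.31% fell, with 22 above 0, 52 below and a median of -0.14. In control cells 0 of 71 passed.

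**Figure D5:**
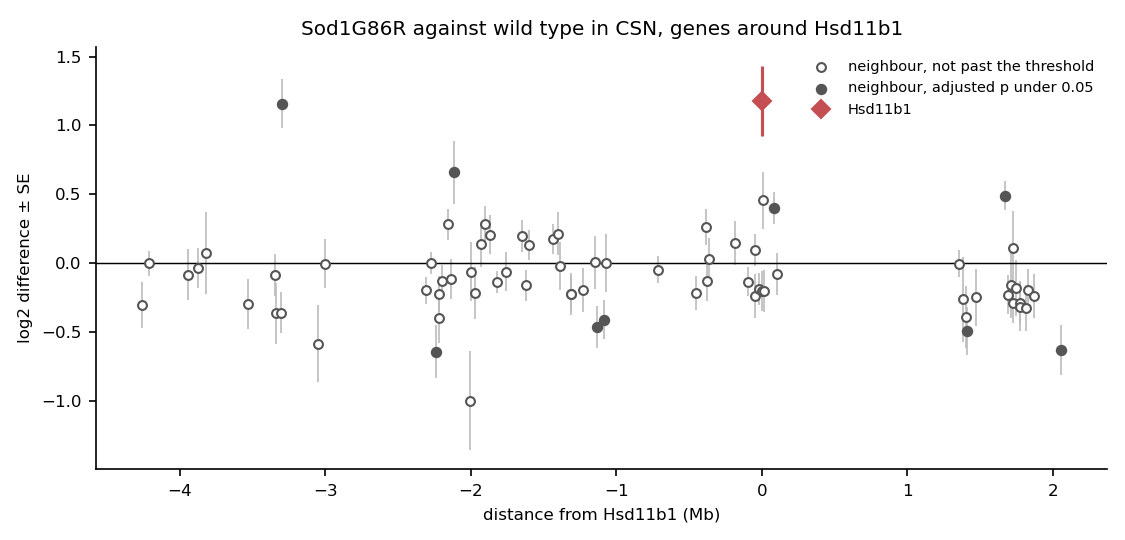
Log2 difference between Sod1G86R and wild type in CSN (with its standard error) of the genes within 5 Mb of Hsd11b1, against distance from it in Mb. Filled points passed at an adjusted p under 0.05; Hsd11b1 (1.18) is drawn as the chosen gene with no test, and Smyd2 is at 1.16.

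For each of the 9 genes the most similar genes were sought by Pearson r over 57 libraries after group means were subtracted, among 9570 well-expressed genes, as a description in which libraries share depth and cell makeup. Among the 3 genes closest to Hsd11b1 were Smpdl3a and Gabrg1 (0.69 and 0.64). Tsc22d3 was closest to Chordc1, Stx18 and P4ha1 (0.71, 0.68 and 0.66), Fkbp4 to Twf2 and Bop1 (0.77 and 0.75), and Per1 to Tet3, Slc6a17 and Adrb1 (0.76, 0.72 and 0.71). Sgk1 was closest to Cyp20a1, Insig1 and Gjc3 (0.64, 0.61 and 0.60). Zbtb16 was closest to Baz2a, Mfhas1 and Dscam (0.69, 0.66 and 0.66), Fkbp5 to Dab1, Uhrf1bp1l and Cpeb2 (0.665, 0.63 and 0.62), and Nr3c1 to Rab22a, Agfg1 and Tmeff1 (0.56, 0.54 and 0.53). Among the 3 closest to Nr3c2 were Ramp3 and Ankrd6 (0.605 and 0.58). Among the 9 themselves, the highest values in CSN were 0.58 between Nr3c2 and Fkbp4, 0.57 between Fkbp5 and Zbtb16, 0.53 between Hsd11b1 and Tsc22d3 and 0.50 between Per1 and Zbtb16. The lowest there were -0.54 between Tsc22d3 and Per1, -0.52 between Hsd11b1 and Per1, -0.485 between Nr3c2 and Zbtb16 and -0.456 between Hsd11b1 and Zbtb16.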

How the data were processed

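RNA of CSN and control cells was made into SMART-Seq v4 libraries and sequenced in 50-base paired reads on a HiSeq 4000, per the labels' protocols. Reads were mapped with STAR 2.7.0 to the Ensembl 87 annotation, per the series' design text, and the submitters' processing notes also name edgeR and mm10, without a role. The deposited values are normalised read counts, a signal in which the authors divided each library's reads by 1 factor, and how the factors were set is not stated in the sources at hand. Dividing by the smallest step in each library gave whole reads for 100% of values (within 0.001), and these recovered reads, 22.2 to 64.2 M a library, entered the count tests, given here as alternatives.

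Differences were fitted on log2(value + 34.6) with limma 3.58.1 (R 4.3.3), with the pseudocount set at 1 ppm of a typical (median) library total, so fold changes of low genes are understated. Genes at 34.6 or more in at least 3 libraries were kept, the variance trend was fitted robustly, and p-values were adjusted by Benjamini and Hochberg over all genes tested, with a threshold of 0.05. CSN and control cells were fitted apart, each over its 8 groups of genotype and age, and together for comparisons between them. Early means 30 and 60 days and late 90 and 105 days. Counts were tested with edgeR 4.0.16 (3737 genes called between genotypes in CSN) and DESeq2 1.42.0 (4699). On simulated reads with 100 genes changed 2-fold, 90% were recovered between genotypes in CSN and 49% in control cells, and at 4-fold 98% and 97%. Only genes well above the pseudocount were changed there, and each gene was drawn on its own, without shifts shared by many genes. Recovery under such shifts was not tested. Tables were made with Python 3.11.15, pandas 2.3.3 and numpy 2.4.6, and figures with matplotlib 3.10.9.

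The 25 animals with both kinds of cell were read from genotype, age and number. Their paired deviations had correlations from -0.362 to 0.342 (median 0.041, 9 of 25 over 0.1), and no block was used in the fits reported first. The labels do not say whether libraries of a group came from separate dissections, so p-values measure the spread between these libraries.

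The 9 genes and all gene lists were chosen with earlier results of these data known. In every main comparison a value is given for all 9. From each list up to 4 passing genes with the smallest p are named, or up to 2 as values where none passed, and other names were chosen after their values were seen. A few genes that this rule names are not reported here. Genotype contrasts within 1 age, and the lists at 1 age, were also chosen after the values were seen. Alternatives were other pseudocounts, filters, scalings, covariates, array weights, a replicate block, ages or libraries left out, and the count tests.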

Additional observations from a re-analysis of the deposited data

Results flagged for a closer look

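In 10 of 99 groups of 4 libraries, 1 library stood apart from the other 3 by Dixon's 95% limit, where chance gives about 1 in 20. In WT CSN these were Hsd11b1 in replicate 7 at 60 days (1588.9 normalised reads, others 196.6 to 248.64) and Per1 in the same library (1159.1, others 2230.7 to 2379.9). At 105 days replicate 13 of WT CSN stood apart for Fkbp4 (3239.6, others 2319.8 to 2340.8) and for Nr3c1 (7021.8, others 5711.5 to 5865.3), and at 30 days replicate 5 was low for Nr3c1 (4279.2, others 5636.2 to 5868.3).

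In control cells Fkbp4 was high in replicate 9 of Sod1G86R at 105 days (6330.2, others 1956.6 to 2527.2) and Tsc22d3 in replicate 5 of Sod1G86R at 90 days (7137.4, others 4742 to 5124.3). Fkbp5 was high in replicate 3 of WT at 30 days (460.18, others 152.31 to 176.47). Nr3c2 was low in replicate 12 of Sod1G86R at 105 days (257.85, others 476.3 to 513.24) and high in replicate 13 of WT at 105 days (1041.5, others 488.63 to 575.53).

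The genotype difference of Fkbp4 was 0.33 in CSN and -0.49 in control cells on the log2 scale, opposite in sign, and the control value did not pass. The CSN value minus the control value was 0.82 (limma adjusted p = 0.0409). That call was lost in some fits that left out libraries, as given above.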

How the results depend on the processing

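Of the values of the 9 genes under other settings, 2393 kept direction and side of the threshold, 69 lost and 28 gained a call, and 48 changed sign. Between genotypes in CSN, 2 genes passed, against 1 with no filter, 0 with the mitochondrial share and 0 with detected genes as covariate, 1 without the 60-day and 1 without the 90-day libraries, 1 in 1 fit over both kinds of cell, and 1 to 3 leaving out a library (3 without replicate 7 of WT CSN at 60 days). For the difference between kinds of cell 1 passed, against 0 with no filter, 2 with the strict filter, 0 with either covariate, 2 with array weights, 0 without the 60-day and 0 without the 90-day libraries, 2 with DESeq2 and 0 to 2 leaving out a library. With age in CSN 0 passed, against 1 with array weights and 1 with DESeq2. With age in control cells 2 passed, against 1 with the mitochondrial and 0 with the glial covariate, 0 at 105 against 30 days and 1 to 2 leaving out a library. For genotype by age in control cells 0 passed, and 0 to 1 leaving out a library (1 without replicate 12 of WT at 105 days). Sign changes were near 0 for the most part. Nr3c1 between genotypes in CSN was -0.23 after quantile normalisation, -0.0171 with TMM, -0.147 with the mitochondrial share, -0.2024 with detected genes, -0.005 with the replicate block, -0.0155 without the 90-day libraries, -0.0077 with edgeR and -0.035 to 0.0446 leaving out a library. In the same comparison Fkbp5 was -0.0161 with the glial score, and Sgk1 -0.0532 after quantile normalisation and -0.0173 with the mitochondrial share. Between genotypes in control cells Hsd11b1 was 0.33 with the glial score, 0.0958 without the 60-day libraries and -0.343 to 0.0113 leaving out a library, and Tsc22d3 -0.0755 without the 90-day libraries. For the difference between kinds of cell Nr3c1 was -0.14 after quantile normalisation, Fkbp5 0.12 with the mitochondrial share, and Sgk1 -0.2994 to 0.0573 leaving out a library. In CSN against control cells Hsd11b1 was 0.13 and Tsc22d3 0.095 in Sod1G86R alone, Fkbp4 -0.13 with detected genes and -0.33 in WT alone, and with the mitochondrial share Fkbp5 was -0.12, Tsc22d3 0.56 and Per1 -0.22. With age in control cells Hsd11b1 was 0.53 with the glial score, 0.41 at 105 against 30 days, 0.002 with edgeR, 0.031 with DESeq2 and -0.3427 to 0.0116 leaving out a library, Nr3c2 -0.0412 with the glial score, and Per1 -0.18 with the mitochondrial share, -0.0906 with the glial score and -0.1142 to 0.1641 leaving out a library. The causes were not tested. Over all genes, calls between genotypes in CSN ran from 20 to 4862 over other settings and from 2224 to 4381 leaving out a library, against 3643. In control cells they ran from 6 to 553 and from 7 to 59, against 15. For the difference they ran from 0 to 3230 and from 238 to 3023, against 1380, and with age in control cells from 0 to 2883 and from 543 to 1978, against 1436. With age in CSN they ran from 0 to 734 and from 1 to 74, against 3, and between kinds of cell from 7645 to 23750, against 14897. Of calls for the difference 846 of 1380 were higher, against 198 of 392 after quantile normalisation and 1222 of 3067 with DESeq2, and with age in control cells 517 of 1436, against 844 of 1617, 544 of 1115 with edgeR and 1318 of 2326 with DESeq2. Same-numbered libraries of the 2 genotypes share only a number: their correlations in CSN were -0.127 to 0.568 (5 of 9 over 0.1) and in control cells -0.304 to 0.436 (1 of 7), and 10 of 18 and 4 of 14 libraries correlated best with their own number. With the replicate block 4862 genes were called between genotypes in CSN, and no call of the 9 genes changed there. Groups of 2 libraries (Sod1G86R CSN at 105 days, WT control cells at 60 days) and the wide spread of control cells limit these comparisons.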
